A study of Mus musculus with 18 samples.

Results

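Estrogen receptor-negative (ER-) luminal cells of the adult mouse mammary gland were compared with the same sorted population at puberty. There were 2 adult and 2 puberty RNA-seq libraries, and a gene entered the comparison when its normalised read count was 10 or more in at least 2 of these 4 libraries. Of 46257 genes in the deposited table, 18585 met this rule. Of these, 15446 had 10 or more in all 4 libraries, 444 passed through the adult libraries only, 469 through the puberty libraries only and 2226 in another way. Just inside the rule lay 333 genes whose second-highest value was 10 to 12, and just outside it 674 genes whose second-highest value was 8 or 9. All mice of the series carried the genotype ERrtTA/TetOCre/rosaYFP, which combines a reverse tetracycline transactivator, a tetracycline-responsive Cre recombinase and a yellow fluorescent reporter. The promoter behind the transactivator, the sorting gates, any doxycycline, the strain, the age in weeks and any pooling of animals are not stated in the labels. The series has 9 groups of 2 libraries, which are ER+ luminal cells, ER- luminal cells and basal cells (BC) at puberty, adulthood and mid pregnancy. The labels do not say that the 2 libraries of a group came from separate mice, so a p-value here speaks to the spread among these libraries alone, which may be technical.

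The mammary epithelium is a bilayer of inner luminal and outer basal cells. ER+ luminal cells sense estrogen and progesterone and signal to their neighbours. The ER- luminal compartment holds progenitors that express the receptor tyrosine kinase Kit and the transcription factor Elf5, and it gives rise to the milk-producing alveolar cells of pregnancy. At puberty the ducts elongate into the fat pad, whereas the adult virgin gland is a mature ductal tree that passes through estrous cycles.

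The 4 adult luminal libraries, ER- and ER+, stood apart from the 14 other libraries of the series, and this bears on all results below. The adult ER- libraries held 2910674 and 3165239 reads in genes, against 9671128 and 11292224 in the puberty ER- libraries, as recovered from the steps in the normalised values. Mitochondrially encoded transcripts made up 5.898% and 4.733% of the adult libraries and 2.173% and 1.882% of the puberty libraries. Among the 18585 genes, 219 were higher in all 4 adult luminal libraries than in each of the 14 others and 357 were lower. Their columns had also been joined differently: of 45 symbols that stand on several gene identifiers, 39 carried the same values under every identifier in the 14 libraries and different values in the 4. For that reason 73 genes whose symbol or identifier stands on several rows, Tead2, Ltbp4, Sgsm3, Map2k7 and Mia2 among them, are not read as results. Spearman correlations over the 18585 genes were 0.964 between the adult libraries, 0.972 between the puberty libraries and 0.932 to 0.942 between stages.

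Differences are given as adult minus puberty on the log2(value + 1) scale with their standard error. For genes near 0 their size depends on the 1 that is added and may be too small or too large. Dkk2, at 0 in both adult libraries, had -5.71 and ranged from -7.13 to -2.62 under other settings. All differences were tested with limma across 22315 genes and all 18 libraries, and a gene was called at a Benjamini-Hochberg adjusted p under 0.05. Of the 18585 genes, 788 were called (4.24%), 271 of them higher in adult cells (1.46%) and 517 lower (2.78%). Of the 271, 46 had entered through the adult libraries only, and of the 517, 133 through the puberty libraries only, so these had been admitted by the group in which they are high. The median difference was -0.01. At an unadjusted p under 0.05 there were 3364. edgeR on the recovered reads called 881 genes (4.74%), of which 647 were called by limma in the same direction, and DESeq2 called 1309 (7.04%). Without puberty library 1, puberty library 2 or adult library 1, limma called 326, 313 and 384 genes. With the 4 ER- libraries alone, which leave 2 libraries a group to estimate the spread, it called 16. All 4 adult luminal libraries lay on 1 side of the 14 others for 33.4% of the called genes, against 3.1% of all 18585. Values without overlap between the stages were common, with 26.4% of genes higher and 26.1% lower in adult cells.

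The label of the sort was met by its defining genes at both stages. Kit had 15896 and 23281 normalised reads in adult ER- cells, against 29598 and 35158 at puberty, and 1288 and 2301 in adult ER+ cells. Elf5 had 10504 and 9673 in adult ER- cells and 9699 and 10048 at puberty, and the groups overlapped. Neither gene was called (adjusted p = 0.51 for Kit and 0.997 for Elf5). The estrogen receptor gene Esr1 had 2373 and 3246 in adult ER- cells, against 2152 and 2032 at puberty, and lay at 11208 and 12091 in adult ER+ cells. The basal keratin Krt5 had 198 and 232 in adult ER- cells and 320 and 83 at puberty, against 8205 and 9605 in adult basal cells. The luminal keratins Krt8 and Krt18 and the basal keratin Krt14 were not called. Of 12 keratins measured, none was called by limma, edgeR or DESeq2, and none reached an unadjusted p under 0.05. Summed over 16 ER+ luminal markers, the values were 42351 and 55408 in adult ER- cells, against 29768 and 27352 at puberty, and 214990 and 246385 in adult ER+ cells. Of these markers, 14 entered the comparison and 1 was called, where 4.24% of all genes were called. That gene was Cited1, a transcriptional co-regulator typical of ER+ cells. It had 1432 and 1072 in adult ER- cells against 322 and 202 at puberty (2.28 ± 0.44, adjusted p = 0.0127). That call was lost without puberty library 2 or adult library 1.

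**Figure D1:**
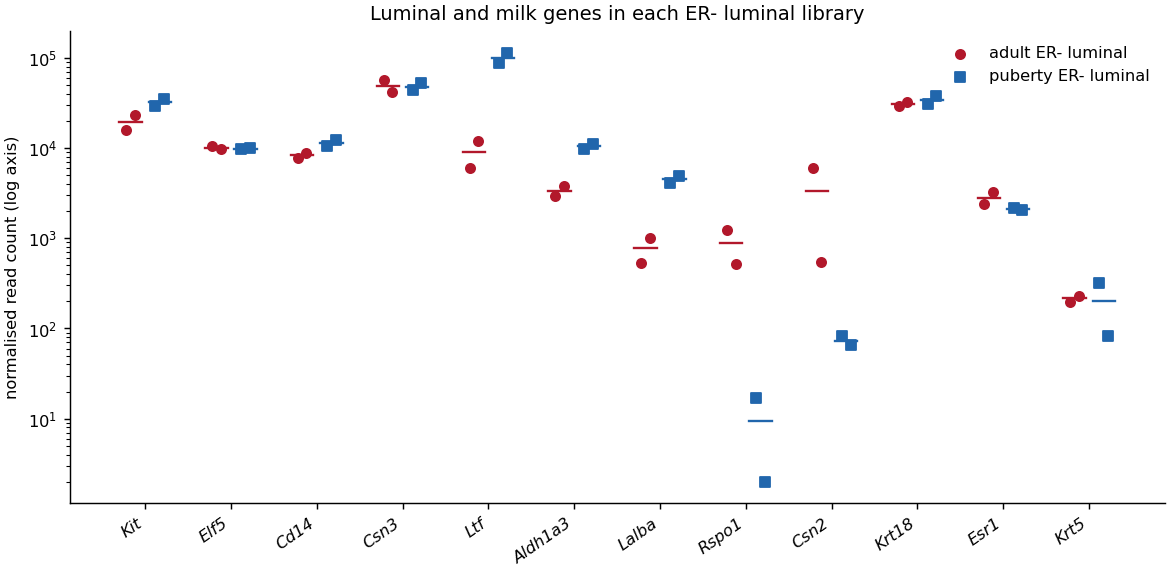
Normalised read count per library (log axis) of luminal, milk and basal genes in adult (circles) and puberty (squares) ER- luminal cells, with a bar at each mean of 2 libraries. Elf5 and Csn3 overlap between the stages, Ltf and Aldh1a3 are lower in both adult libraries, and Rspo1 is higher in both.

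Within the ER- marker list, 3 of 16 genes were called, 1 higher and 2 lower, against 1.46% and 2.78% of all genes. Ltf encodes lactoferrin, an iron-binding antimicrobial protein of milk (chromosome 9, 111019271 to 111042767, plus strand, GRCm38). It had 6040 and 12029 normalised reads in adult ER- cells, against 87023 and 113955 at puberty. ER- cells of mid pregnancy had 3028 and 3154. Both adult libraries lay far below both puberty libraries (-3.55 ± 0.48, adjusted p = 0.00226), and the call held whichever of the 4 libraries was left out. Ltf was also lower in adult ER+ cells (-3.79, adjusted p = 0.000885), with 567 and 1312 in adult and 13372 and 10619 at puberty. In basal cells the difference was -0.15, and the ER- and basal differences themselves differed by -3.40 ± 0.68 (adjusted p = 0.0227).

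Aldh1a3 encodes a retinaldehyde dehydrogenase that makes retinoic acid and marks ER- luminal progenitors (chromosome 7, 66390890 to 66427517, minus strand, GRCm38). It had 2938 and 3753 normalised reads in adult ER- cells and 9803 and 11221 at puberty (-1.66 ± 0.41, adjusted p = 0.0391). The groups did not overlap, but the call was lost when any 1 of the 4 libraries was left out. Among retinoid pathway genes, Aldh1a1 also fell. This related dehydrogenase had 7 and 51 in adult cells against 267 and 258 at puberty (-3.69 ± 0.60, adjusted p = 0.0027), and all 4 adult luminal libraries lay below each of the 14 others. The value of 7 lies below the level of 3 reads in adult library 1, which was 20.448.

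Rspo1 encodes R-spondin 1, a secreted enhancer of WNT signalling that ER- luminal cells make (chromosome 4, 124986430 to 125009099, plus strand, GRCm38). It had 1248 and 520 normalised reads in adult ER- cells, against 17 and 2 at puberty. ER- cells of mid pregnancy had 4213 and 4844. The level of 3 reads in the puberty libraries was 6.147 and 5.262, so the size of the difference rests on a handful of reads. The difference was 6.78 ± 1.18 (adjusted p = 0.0111) and ranged from 5.49 to 8.07 when 1 library was left out. The call was lost without puberty library 2 or adult library 1. Basal cells had 1470 and 127 in adult against 39 and 15 at puberty (4.10, adjusted p = 0.0551). ER+ cells had 101 and 25 against 8 and 6 (2.70, adjusted p = 0.244). The ER- difference was not called different from that in basal cells (adjusted p = 0.456) or ER+ cells (adjusted p = 0.723). Of 39 genes in the list of WNT and R-spondin signalling, Rspo1 rose and Dkk2 fell, 2 called genes where 4.24% of all genes were called. edgeR called 3 of the 39 and DESeq2 6. Dkk2, a secreted WNT modulator, was at 0 in both adult libraries and at 41 and 64 at puberty, and was thus at least 5.32-fold lower in adult cells, set against 3 reads over the 2 adult libraries. It had entered the comparison through the puberty libraries only.

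In limma, milk genes other than Ltf did not pass the test. Csn3, which encodes kappa-casein, had 56745 and 41900 normalised reads in adult ER- cells and 43935 and 52225 at puberty. Lalba, the alpha-lactalbumin gene, had 532 and 1015 in adult cells against 4047 and 4924 at puberty, without overlap (-2.60 ± 0.77, adjusted p = 0.0977). Csn2, the beta-casein gene, differed widely between the adult libraries, with 6053 and 546 in adult cells and 82 and 65 at puberty (adjusted p = 0.232). Wap, the whey acidic protein gene, stayed at 7 to 15 in all 4 libraries and reached 7261 and 3556 in mid pregnancy. Of 17 milk genes measured, 1 was called by limma, 2 by edgeR and 5 by DESeq2. The shares of all genes so called were 4.24%, 4.74% and 7.04%.

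Genes of the interferon response were lower in adult ER- cells. Interferons bind surface receptors that activate transcription factors, which switch on antiviral genes through a DNA element called the interferon-stimulated response element. Of 54 interferon-response genes measured, 25 were called and all 25 were lower in adult cells, against 2.78% of all genes. Their median difference was -1.25, against -0.01 for all 18585 genes and -0.04 for all 22315 tested. Over all 55 genes of the list, the summed values were 43015 and 39405 in adult ER- cells, against 78712 and 102579 at puberty. In ER- cells of mid pregnancy the sums were 33950 and 55579. Differences lay below 0 for 52 of the 54 genes, and for 45 both adult libraries were below both puberty libraries (26.1% of all genes). None of the 54 genes set the 4 adult luminal libraries apart from the 14 others. Those 14 include the mid pregnancy libraries, where the sums in ER- cells were also low, so this count had little room to come out otherwise. The part of library differences in these genes was not tested. limma called 7 of them without puberty library 2, 16 without puberty library 1, 17 without adult library 1 and 16 without adult library 2.

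**Figure D2:**
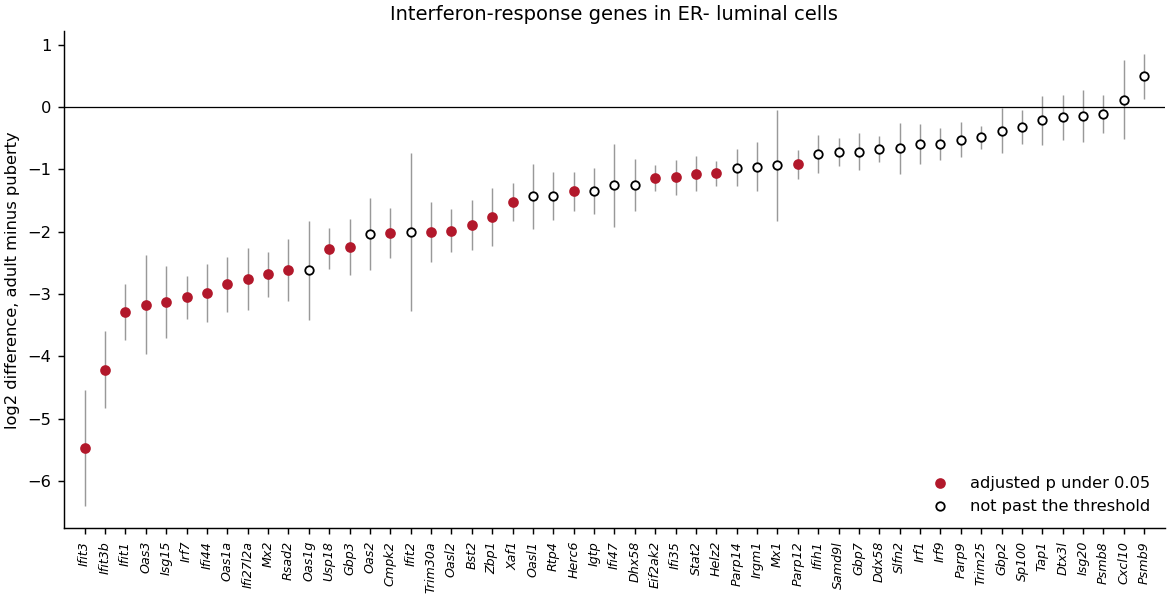
Log2 difference (adult minus puberty, with standard error) of 53 interferon-response genes in ER- luminal cells, ordered by size. Filled points passed an adjusted p of 0.05, and 51 of 53 points lie below 0.

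The effectors led the list. Ifit3, which encodes an RNA-binding antiviral protein, had 21 and 13 normalised reads in adult ER- cells, against 490 and 1234 at puberty (-5.47 ± 0.93, adjusted p = 0.00461). In mid pregnancy it had 21 and 38. Without puberty library 2 its adjusted p was 0.0527. Its near-identical neighbour Ifit3b, whose reads the counting may have split with Ifit3, had 21 and 19 in adult cells and 248 and 609 at puberty. The level of 3 reads in the adult libraries was 20.448 and 18.795, so the size of both falls rests on a handful of adult reads. The related Ifit1 had 273 and 276 in adult cells, against 1955 and 3703 at puberty (-3.29 ± 0.45, adjusted p = 0.000864). Oas3, which makes the second messenger that activates RNase L, had 48 and 82 in adult cells against 455 and 727 at puberty (adjusted p = 0.0395). The Oas3 call was lost when any 1 of the 4 libraries was left out. Isg15, a ubiquitin-like modifier, had 69 and 26 in adult cells and 269 and 534 at puberty (-3.13 ± 0.58, adjusted p = 0.00641), and lost its call without puberty library 2 or adult library 2. In all of these the adult and puberty values did not overlap, which was so for all 788 called genes and adds no support.

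Regulators of the response were lower in part. Irf7, Ifi44 and Stat2 were chosen for the text after their values were seen. Irf7, the transcription factor that amplifies type I interferon production (chromosome 7, 141262706 to 141266481, minus strand, GRCm38), had 464 and 602 normalised reads in adult ER- cells. At puberty it had 3318 and 5819 (-3.05 ± 0.34, adjusted p = 0.000116), and the call held whichever library was left out. Ifi44, an interferon-induced antiviral gene, had 634 and 633 in adult cells and 4170 and 6017 at puberty (-2.98 ± 0.47, adjusted p = 0.00306). Stat2 fell (-1.07 ± 0.28, adjusted p = 0.0462), a call lost without any 1 of the 4 libraries. Among 16 interferon receptors, sensors and signalling genes, 1 was called, where 4.24% of all genes were called. It was the feedback inhibitor gene Socs3, described below.

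The promoters of the 5 called interferon genes with the largest falls and a match to the response element are shown to let the letters be read beside the values. Each line gives the 200 bases before the gene start from RefSeq (GRCm38.p6), 5′ to 3′ on the gene's strand, and capitals mark matches to GAAANNGAAA on either strand, where the other strand reads TTTCNNTTTC.
Ifit3, chr19:34583329-34583528, plus strand: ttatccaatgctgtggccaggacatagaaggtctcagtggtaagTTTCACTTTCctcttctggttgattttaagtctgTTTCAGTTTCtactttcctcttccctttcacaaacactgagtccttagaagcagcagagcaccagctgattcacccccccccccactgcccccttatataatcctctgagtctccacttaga
Ifit3b, chr19:34607757-34607956, plus strand: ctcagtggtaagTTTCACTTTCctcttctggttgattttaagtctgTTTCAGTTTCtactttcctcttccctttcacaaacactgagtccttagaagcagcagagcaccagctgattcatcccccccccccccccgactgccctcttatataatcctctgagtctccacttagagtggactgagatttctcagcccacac
Ifit1, chr19:34640689-34640888, plus strand: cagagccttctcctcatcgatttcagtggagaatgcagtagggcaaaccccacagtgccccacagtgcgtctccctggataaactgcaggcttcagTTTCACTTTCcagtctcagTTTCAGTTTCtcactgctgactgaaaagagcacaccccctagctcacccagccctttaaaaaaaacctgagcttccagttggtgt
Oas3, chr5:120777660-120777859, minus strand: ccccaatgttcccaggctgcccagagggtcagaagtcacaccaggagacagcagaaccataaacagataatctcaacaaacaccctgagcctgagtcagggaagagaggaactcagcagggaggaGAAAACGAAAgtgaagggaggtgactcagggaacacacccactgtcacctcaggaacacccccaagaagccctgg
Isg15, chr4:156200819-156201018, minus strand: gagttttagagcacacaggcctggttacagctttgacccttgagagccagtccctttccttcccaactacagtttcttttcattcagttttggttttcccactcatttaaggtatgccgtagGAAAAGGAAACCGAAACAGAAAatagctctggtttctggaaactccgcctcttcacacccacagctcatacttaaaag

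Ifit3, Ifit3b and Ifit1 each held 2 such matches, Oas3 held 1, and Isg15 held 3 that overlap one another. The matches begin 156 and 122 bases before the start of Ifit3, and 188 and 154 bases before that of Ifit3b. Over windows of 250 bases before to 50 after the gene start, 12 of the 21 called interferon genes with a RefSeq promoter held the motif (57.1%), as did 8 of the 22 other interferon genes with one (36.4%). The share was 3.72% over the 11689 genes of the comparison with a promoter window and 3.99% over all 27025 genes in the table. A match is a description of letters and not a binding site.

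The fall of the interferon genes was not shown to be particular to ER- cells. In ER+ cells 10 of the 54 were called, all lower in adult cells (5.07% of all genes were called lower there), with a median of -0.63. In basal cells 7 were lower and 1 was higher, with a median of -0.27 (5.31% of all genes were called lower there and 5.98% higher). None of the 54 differences was called different from that in ER+ cells by limma or edgeR and 1 was by DESeq2, where the shares of all genes so called were 0.0861%, 0.0108% and 0.199%. At an unadjusted p under 0.05 in limma there were 11, 10 of them more negative in ER- cells. Against basal cells 3 were called different (3.8% of all genes). For Irf7 the ER- difference minus the basal one was -2.10 ± 0.48 (adjusted p = 0.0282). Markers of immune cells, which also express these genes, had larger sums in adult ER- cells: the 19 in the list summed to 4561 and 6931 in adult ER- cells, against 2548 and 1839 at puberty. The members did not move one way. Of the 15 that entered the comparison, 10 had differences above 0 and 5 below, and 1 was called higher and 1 lower (1.46% and 2.78% of all genes). Adipocyte markers had smaller sums in adult ER- cells, at 3656 and 3907 in adult cells against 32283 and 8457 at puberty. Endothelial markers did too, at 1294 and 963 in adult cells against 13571 and 2652 at puberty. The part of these cell types in the interferon values was not tested.

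Antigen presentation genes were called in both directions, with 2 of 21 higher and 1 lower, against 1.46% and 2.78% of all genes. Their median difference was 0.02. At an unadjusted p under 0.05 in limma, 5 were higher and 1 lower. Cd74, the invariant chain of MHC class II, had 2291 and 3083 normalised reads in adult ER- cells, against 769 and 441 at puberty (2.19 ± 0.51, adjusted p = 0.0374). The class II gene H2-Ab1 had 328 and 577 in adult cells against 210 and 83 at puberty (1.71 ± 0.43, adjusted p = 0.0373). H2-T23, a non-classical class I gene, had 1602 and 1855 in adult cells and 3568 and 4131 at puberty (-1.16 ± 0.28, adjusted p = 0.0309). The calls of Cd74 and H2-T23 were lost without any 1 of the 4 libraries, and that of H2-Ab1 without puberty library 2 or either adult library. The immune markers that summed higher in adult ER- cells include Cd74 itself, and their part in the class II values was not tested.

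Il6, Socs3, Cebpd and Serpina3n were lower in adult cells in both luminal sorts, and they are not members of 1 list. The lists nearest to them did not move one way, with medians of 0.14 over 27 chemokines and cytokines (15 above and 12 below 0) and 0.46 over 21 innate defence genes (12 above and 9 below 0). Il6 encodes an inflammatory cytokine that signals through STAT3. It had 55 and 101 normalised reads in adult ER- cells, against 750 and 530 at puberty (-3.06 ± 0.45, adjusted p = 0.00178). Socs3, the feedback inhibitor of that pathway, had 1452 and 1673 in adult cells against 5906 and 4894 at puberty (-1.79 ± 0.24, adjusted p = 0.000559). Cebpd, a transcription factor of the acute-phase response, had 2557 and 2300 in adult cells and 8648 and 7643 at puberty (-1.75 ± 0.19, adjusted p = 8.5e-05). Serpina3n, a secreted protease inhibitor named after its values were seen, had 55 and 51 in adult cells against 2060 and 1846 at puberty (-5.18 ± 0.36, adjusted p = 5e-07). All 4 calls held whichever library was left out. The differences in ER+ cells were -3.76, -1.84, -1.89 and -6.16 for the same 4 genes in that order, each called. In basal cells Il6 was higher in adult (2.00), Socs3 and Cebpd were not called (-0.06 and 0.26) and Serpina3n was lower (-2.97). Il6 and Serpina3n were lower in all 4 adult luminal libraries than in each of the 14 others. Among the chemokines and cytokines, Il15 also fell and Il1rn rose. Il15 had 69 and 120 in adult cells against 335 and 416 at puberty, and Il1rn, the interleukin-1 receptor antagonist, had 307 and 351 in adult cells against 64 and 48 at puberty. Leaving out either puberty library or adult library 1 ended both calls, and leaving out adult library 2 ended that of Il1rn.

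Notch signalling specifies luminal fate, and 4 of 24 Notch pathway genes were called, all lower in adult cells (against 2.78% of all genes), with a list median of -0.56 in ER- and -0.45 in ER+ cells. Numb, an inhibitor of Notch, had 2366 and 4417 normalised reads in adult ER- cells, against 10359 and 10942 at puberty (-1.72 ± 0.29, adjusted p = 0.00398). The Notch target gene Hes1, a transcriptional repressor, had 771 and 652 in adult cells and 1660 and 1712 at puberty (-1.25 ± 0.21, adjusted p = 0.00376). Hey1, a related repressor, had 1786 and 2062 in adult cells and 5111 and 6613 at puberty (-1.60 ± 0.33, adjusted p = 0.0125). Notch1 had 8718 and 8301 in adult cells and 15871 and 13901 at puberty (-0.80 ± 0.21, adjusted p = 0.0442). Members with opposite roles, the inhibitor Numb and the receptor Notch1, were thus lower together. The calls of Numb and Hes1 held without any 1 library, that of Hey1 was lost without puberty library 2 or adult library 1, and that of Notch1 without any 1 of the 4. In ER+ cells 4 of the 24 were also called lower, Hes1 (-1.24, adjusted p = 0.00237) and Hey1 (-1.75, adjusted p = 0.00449) among them. None of the 24 differences was called different from that in ER+ cells by limma, edgeR or DESeq2, with 1 at an unadjusted p under 0.05 in limma. Against basal cells, Hes1, Hey1 and Notch1 differed by -1.35, -2.50 and -1.39. Of 32 regulators of luminal progenitors and alveolar cells, 4 fell, against 2.78% of all genes: Cebpd, Hey1, Notch1 and Id1, an inhibitor of basic helix-loop-helix factors. None was called higher by limma, and at an unadjusted p under 0.05 in limma 10 were lower and 1 higher. Differences lay below 0 for 27 of the 32, with a list median of -0.34. In ER+ cells 6 of the 32 were called lower, Cebpd, Hey1 and Id1 (-2.66) among them, and none of the 32 was called different between the luminal sorts by limma, edgeR or DESeq2 or reached an unadjusted p under 0.05. Id1 had 48 and 32 in adult cells against 302 and 158 at puberty, lower in all 4 adult luminal libraries than in each of the 14 others. Its call was lost without any 1 of the 4 ER- libraries.

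Immediate-early genes were called in both directions, 3 of 32 higher and 3 lower, against 1.46% and 2.78% of all genes. Most differences were negative, 27 of the 32, with a list median of -0.55. At an unadjusted p under 0.05 in limma, 15 were lower and 3 higher. Egr3, a zinc-finger transcription factor induced by growth signals, had 1807 and 2751 normalised reads in adult ER- cells, against 566 and 825 at puberty (1.71 ± 0.31, adjusted p = 0.00585). The AP-1 subunit Jund had 6455 and 9711 in adult cells against 2992 and 3914 at puberty, and was higher in all 4 adult luminal libraries than in each of the 14 others. Btg2, an antiproliferative gene, had 3927 and 4286 in adult cells and 11248 and 12516 at puberty (-1.53 ± 0.24, adjusted p = 0.00203). The heat-shock chaperone Hspa1a had 171 and 276 in adult cells against 724 and 953 at puberty. The Btg2 call held without any 1 library. That of Egr3 was lost without puberty library 1 or adult library 2, that of Hspa1a without puberty library 2 or adult library 1, and that of Jund without either puberty library or adult library 2. Of 14 imprinted growth genes 1 was called, and it was lower, against 2.78% of all genes. Grb10, an adaptor that restrains growth-factor signalling, had 607 and 439 in adult cells against 1816 and 2605 at puberty (-2.07 ± 0.29, adjusted p = 0.000778). In ER+ cells Egr3 (1.42), Jund (1.42), Btg2 (-0.86), Hspa1a (-2.63) and Grb10 (-2.44) were each called in the same direction. In basal cells Egr3 (1.59) and Grb10 (-1.68) were called, and Jund (0.84), Btg2 (-0.28) and Hspa1a (-0.99) were not.

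Proliferation genes differed more between the adult libraries than between the stages. Mki67, a proliferation marker, had 16523 and 3409 normalised reads in the adult ER- libraries, against 4672 and 1641 at puberty (adjusted p = 0.589). The 46 cell-cycle genes summed to 72471 and 21733 in adult cells and 37632 and 20624 at puberty. Their median difference was 0.61. None was called by limma or edgeR and 2 were by DESeq2, with 1 higher and 1 lower at an unadjusted p under 0.05. Adult library 1 was the high one in both Mki67 and Csn2.

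Pak3 and Syt9 rose in adult ER- cells, and their stage difference exceeded that in ER+ cells. Pak3 encodes a p21-activated kinase that acts downstream of Rac and Cdc42 (chromosome X, 143518591 to 143797796, plus strand, GRCm38). It had 580 and 464 normalised reads in adult ER- cells, against 105 and 95 at puberty (2.37 ± 0.24, adjusted p = 3.59e-05). In mid pregnancy it had 697 and 939. In ER+ cells it had 497 and 726 in adult and 648 and 575 at puberty. The ER- difference exceeded that in ER+ cells by 2.39 ± 0.34 (adjusted p = 0.0107) and that in basal cells by 2.73 ± 0.34 (adjusted p = 0.000537). The difference from ER+ cells kept its call in 5 of 8 leave-outs of a luminal library and was lost without puberty ER- library 2, adult ER- library 1 or puberty ER+ library 1, at adjusted p up to 0.0761. Syt9, a synaptotagmin that senses calcium in secretion and was named after its values were seen, had 150 and 120 in adult ER- cells, against 21 and 20 at puberty. In mid pregnancy it had 498 and 549. It differed from ER+ cells by 2.72 ± 0.46 (adjusted p = 0.0415), a call kept in 2 of 8 leave-outs, those of an adult ER+ library.

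Stage differences that set ER- apart from ER+ cells were rare: 16 of the 18585 genes (0.0861%), 14 of them higher (0.0753%) and 2 lower (0.0108%) in ER- relative to ER+ cells. Of the 16, 10 were at 0 in both adult ER+ libraries, which are the shallowest of the series, and 5 were also called within ER- cells. Without adult ER+ library 1 or 2 the count was 60 and 104, and without puberty ER- library 2 it was 7. edgeR called 2. Epb41l2, Chrdl1, Peg10, Podn and Ust, named after their values were seen, kept their calls in all 8 leave-outs. Chrdl1, Peg10, Podn and Ust were at 0 in both adult ER+ libraries. Chrdl1, a bone morphogenetic protein antagonist, was also called within ER- cells, with 35 and 63 in adult ER- cells against 166 and 325 at puberty (-2.28, adjusted p = 0.0113), and it had 195 and 205 in puberty ER+ cells. Epb41l2 encodes a membrane-skeleton protein. Epb41l2 had 1711 and 1498 in adult ER- cells and 1521 and 1177 at puberty, against 233 and 215 in adult ER+ cells and 854 and 825 in puberty ER+ cells, so the ER+ cells carried that difference. Against basal cells 707 genes differed (3.8%).

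Further rises in ER- cells are given with their ER+ values, and the difference between the sorts was not called for them. Zbtb7c, a zinc-finger gene chosen after its values were seen, had 532 and 245 normalised reads in adult ER- cells, against 50 and 32 at puberty (3.14 ± 0.41, adjusted p = 0.000427). Its ER+ values were 70 and 58 in adult and 61 and 42 at puberty, and the difference between sorts had an adjusted p of 0.116. Cyp1b1, a cytochrome P450 that hydroxylates estradiol and was likewise chosen afterwards, had 1180 and 1999 in adult ER- cells against 150 and 334 at puberty (2.77 ± 0.50, adjusted p = 0.00972). Its ER+ values were 132 and 223 in adult and 138 and 264 at puberty. Its ER- call was lost without puberty library 1 or adult library 2. Ctse, which encodes the protease cathepsin E, had 273 and 389 in adult ER- cells against 23 and 16 at puberty, and 1234 and 1856 in adult ER+ cells against 324 and 298 at puberty. It rose in ER- cells (4.02 ± 0.62, adjusted p = 0.00181), ER+ cells (2.28, adjusted p = 0.0417) and basal cells (3.05, adjusted p = 0.00738).

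Mt2, Mpzl2 and Tagln rose in both luminal sorts. Mt2, a metallothionein that binds zinc and copper, had 4772 and 3239 normalised reads in adult ER- cells, against 187 and 151 at puberty (4.54 ± 0.75, adjusted p = 0.00757). Its ER+ values were 9572 and 5551 in adult and 406 and 238 at puberty. The adhesion gene Mpzl2, named after its values were seen, had 1752 and 1949 in adult ER- cells against 425 and 300 at puberty (2.37 ± 0.28, adjusted p = 0.000147). Both genes were higher in all 4 adult luminal libraries than in each of the 14 others, and the Mt2 call was lost without puberty library 2 or adult library 1. Tagln, an actin-binding gene of smooth muscle and basal cells, had 505 and 1185 in adult ER- cells against 54 and 37 at puberty (4.08 ± 0.69, adjusted p = 0.00378). Of 18 basal markers, Tagln was the 1 called higher and 3 were lower (1 without puberty library 2 or without adult library 1), and the list summed to 29068 and 30984 in adult cells against 47337 and 35596 at puberty. Of all genes, 1.46% were called higher and 2.78% lower. Of the 3 basal markers called lower, Igfbp3 had 103 and 151 in adult cells against 658 and 841 at puberty, and Sparc had 2073 and 2657 against 4293 and 5250. Both were lower in all 4 adult luminal libraries than in each of the 14 others. The Sparc call was lost without puberty library 2 or adult library 1.

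**Figure D3:**
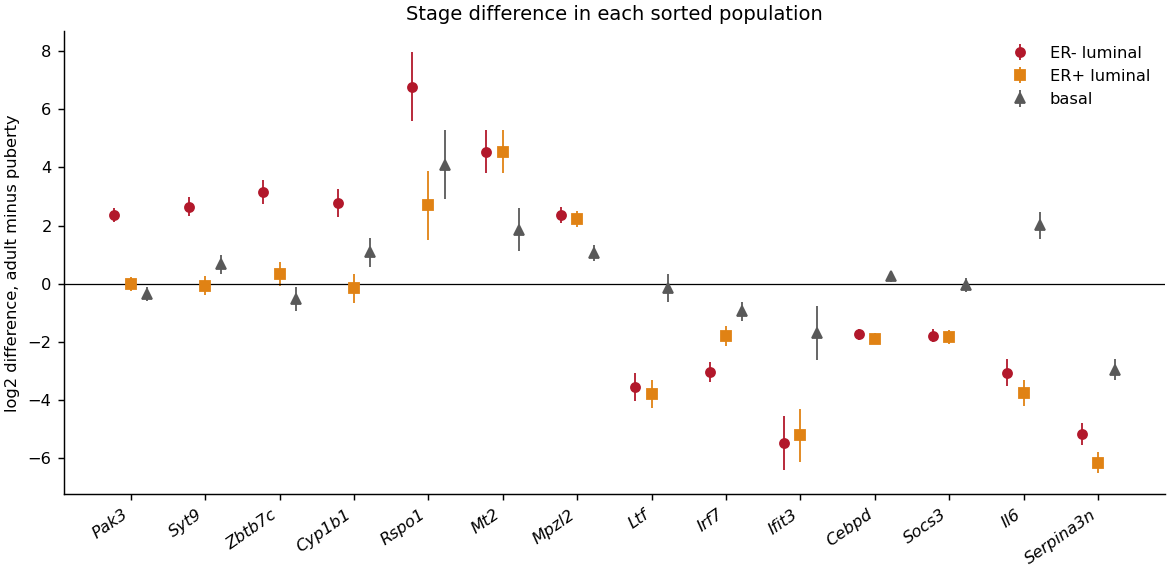
Log2 difference, adult minus puberty, with standard error, of 14 genes in ER- luminal (circles), ER+ luminal (squares) and basal cells (triangles), from 2 libraries per stage and sort. Pak3 and Syt9 lie at 2.37 and 2.65 in ER- cells and near 0 in ER+ cells, whereas Ltf, Cebpd, Socs3 and Serpina3n are lower in both luminal sorts.

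Fat-cell transcripts were lower in adult ER- cells, as they were in the other sorts. In such bulk samples fewer cells of a type and less RNA per cell cannot be told apart. Of 8 adipocyte markers measured, 7 were called, all lower, with a list median of -5.07, against 2.78% of all genes called lower. The same count was 7 in ER+ and 6 in basal cells, where 5.07% and 5.31% of all genes were called lower. The list summed to 3656 and 3907 in adult ER- cells, against 32283 and 8457 at puberty. Plin1, which coats the lipid droplet, was at 0 in both adult libraries and at 644 and 174 at puberty, at least 41.4-fold lower set against 3 reads over both libraries. The hormone gene Adipoq had 7 and 7 in adult cells against 1380 and 230 at puberty. Cfd, the adipsin gene, had 55 and 44 in adult cells against 8662 and 1412, and Cidec, a lipid-droplet gene, 14 and 13 against 1951 and 309. Cyp2e1, an enzyme that adipocytes share with liver, had 14 and 0 in adult cells against 5537 and 900 at puberty. Pck1, another such enzyme, had 7 and 0 in adult cells against 1972 and 169 at puberty. Puberty library 1 was the higher one for each of these 6 genes, and without it 1 of the 7 markers was called. Without adult library 1 or adult library 2, 2 were called. The count was 4 with no filter on low values, 3 without the pregnancy libraries, 3 with reads thinned to the shallowest library and 0 with the 4 ER- libraries alone. Plin1, Adipoq and Pck1 had entered the comparison through the puberty libraries only, the group in which they are high. The level of 3 reads in the adult libraries was 20.448 and 18.795, and the adult values of Plin1, Adipoq, Cidec, Cyp2e1 and Pck1 lay below it.

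Endothelial, pericyte and fibroblast transcripts gave few calls in limma and more endothelial ones in DESeq2. Of all genes, limma called 2.78% lower, and in either direction limma called 4.24%, edgeR 4.74% and DESeq2 7.04%. All 11 endothelial markers had differences below 0 (median -2.72), 8 of them at an unadjusted p under 0.05, and 1, Tek, was called (3 without puberty library 2 and 2 without adult library 1). edgeR called 1 and DESeq2 9. Tek, the angiopoietin receptor, had 7 and 19 normalised reads in adult ER- cells, against 646 and 569 at puberty (-5.58 ± 0.67, adjusted p = 0.000416), and the call held without any 1 library. The level of 3 reads in the adult libraries was 20.448 and 18.795, so the size of the Tek fall rests on a handful of adult reads. All 4 adult luminal libraries lay below each of the 14 others for 5 of the 11 endothelial markers, Tek among them, and for 4 of the 6 pericyte markers. The endothelial list summed to 1294 and 963 in adult cells, against 13571 and 2652 at puberty, again with puberty library 1 higher. Of 6 pericyte markers 1 was called, none without puberty library 1 or adult library 2 and 2 without puberty library 2. edgeR called none of the 6 and DESeq2 2. Of 10 fibroblast markers none was called by limma or edgeR and 1 was by DESeq2, with 2 lower at an unadjusted p under 0.05, and the list summed to 19969 and 24709 in adult cells against 15973 and 69297 at puberty. The defining markers of these cell types were thus not absent from the puberty sort, and their part in other differences was not tested.

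**Figure D4:**
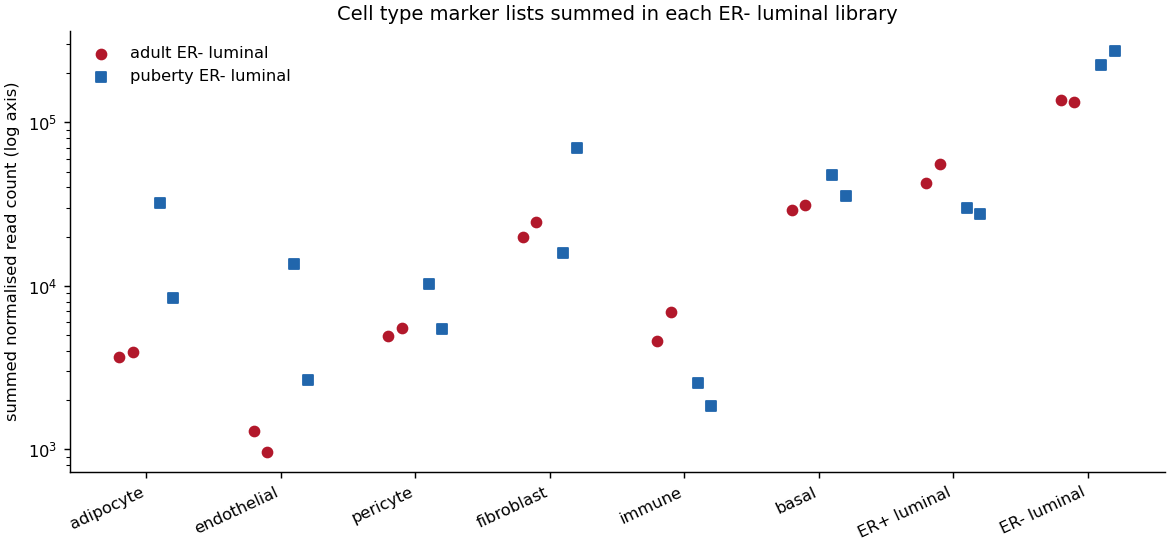
Summed normalised read count (log axis) of 8 cell type marker lists in each adult (circles) and puberty (squares) ER- luminal library. Adipocyte and endothelial sums are lower in both adult libraries, at 3656 and 3907 and at 1294 and 963, and immune sums are higher, at 4561 and 6931.

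Small RNA genes made up part of the rises, with 62 of 504 called higher in adult ER- cells and 3 lower (12.9% called), against 191 higher and 412 lower of 14332 protein-coding genes (4.21%). The Y RNA genes Rny3 and Rny1, which encode small noncoding RNAs bound by Ro60, are examples. Rny3 had 1364 and 1235 normalised reads in adult ER- cells, against 29 and 34 at puberty, and 2095 and 1353 in adult ER+ cells. Rny1 had 1296 and 1072 in adult ER- cells against 39 and 53 at puberty. Both were higher in all 4 adult luminal libraries than in each of the 14 others. Raver1, a splicing co-factor gene, had 2209 and 1673 in adult ER- cells and Lipo1, a lipase gene, had 150 and 201, and both were at 0 in all 14 other libraries. Against 3 reads over the 2 puberty libraries, Raver1 was at least 678-fold and Lipo1 at least 61.3-fold higher. Both had entered the comparison through the adult libraries only. The differences of Rny3, Rny1, Raver1 and Lipo1 are shared by all adult luminal libraries. For these genes, the libraries or their counting cannot be told apart from the stage. Gabrg3, a GABA receptor subunit gene, was at 0 in both adult ER- libraries and at 175 and 397 at puberty, at least 29.0-fold lower. It had entered the comparison through the puberty libraries only. It was also low in puberty ER+ cells (16 and 11) and ER- cells of mid pregnancy (4 and 8), with 3 and 90 in adult basal cells. Gabrg3 thus did not set the 4 adult luminal libraries apart from the 14 others, and the cause of its difference was not tested.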

How the data were processed

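RNA of sorted cells was purified with RNeasy micro kits and sequenced from Ovation Solo libraries, per the labels. The authors deposited 1 table of normalised signal values per gene. STAR, Picard, HTSeq and GRCm38 (mm10) are named per the submitters' processing notes, with no versions, and strand use and duplicate handling are not stated there. Column totals near 20000000 and low values in library-specific steps led to each deposited value being taken for a read count brought to a total of 20000000, with fractions rounded upward. Recovered reads returned the deposited values for 99.76% to 99.95% of non-zero entries (12.1% to 57.0% by chance), but a stricter check without allowance for rounding passed in 3 of 18 libraries, so depths and floors rest on that inferred rounding. Library depths were 2406221 to 11292224 reads. Floors of 3 reads cover counting error only.

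Of 46868 rows, 790 repeated 1 of 179 gene IDs, and the row with the highest total was kept. limma 3.58.1 (trend, robust, R 4.3.3) was fitted to log2(value + 1), with a mean for each of 9 groups, over 22315 genes with 10 or more in at least 2 of 18 libraries. edgeR 4.0.16 and DESeq2 1.42.0 on the recovered reads were alternatives. Scripts were tested on simulated data. Gene coordinates are from GENCODE vM21. The members and gene lists were chosen with earlier results of these data known. Named genes were a panel of 22, among called genes without overlap whose higher mean was above 216, the 12 that rose and 12 that fell most, the 8 largest that also differed from ER+ cells, and up to 4 called genes per list. Predicted genes and those on several rows were left out. Results of some genes are not reported here.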

Additional observations from a re-analysis of the deposited data

Results flagged for a closer look

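Stage differences of the named genes in ER- luminal cells were set against those in the other sorts, by a test of the difference itself. Against ER+ luminal cells, Pak3 (2.39 on the log2 scale, adjusted p = 0.0107) and Syt9 (2.72, adjusted p = 0.0415) rose more in ER- cells.

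Against basal cells the ER- difference was more positive for Pak3 (2.73), Syt9 (1.99), Zbtb7c (3.67) and Tagln (4.41), and for the genes that set all adult luminal libraries apart, Raver1 (10.91), Lipo1 (7.45), Rny1 (3.46) and Rny3 (3.93). It was more negative for the interferon regulator Irf7 (-2.10), the inflammatory genes Il6 (-5.07), Socs3 (-1.73), Cebpd (-2.0) and Serpina3n (-2.21), the Notch pathway genes Hes1 (-1.35), Hey1 (-2.50) and Notch1 (-1.39), and Tek (-5.09) and Gabrg3 (-8.85). It was also more negative for ER- luminal and milk genes: Ltf (-3.40), Lalba (-6.02), Kit (-3.25) and Cd14 (-2.53). Among those last 4, Lalba, Kit and Cd14 were not called within ER- cells and were higher in adult than in puberty basal cells (3.42, 2.50 and 2.07), with Kit at 5567 and 4125 in adult basal libraries against 558 and 1277 at puberty.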

How the results depend on the processing

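The main count of 788 called genes became 16 with the compared groups alone (3663 at an unadjusted p under 0.05), 1309 with DESeq2, 490 with reads thinned to 2406221 per library, and 313 to 580 with 1 library left out. The 16 genes differing from ER+ cells (1214 unadjusted) became 2 and 29 with pseudocounts of 10 and 0.5, 4 with quantile normalization (100% of them higher, against 87.5%), 0 with the compared groups alone or without the pregnancy libraries (1201 and 1140 unadjusted in limma), 2 with edgeR, 37 with DESeq2, 6 with thinned reads, and 7 to 104 with 1 library left out. The 707 genes differing from basal cells became 363 with the compared groups alone, 1556 with DESeq2, and 235 to 879 with 1 library left out. Leaving out genes on several rows, or scaling protein-coding genes alone, both chosen after seeing the data, gave 745 and 635, 16 and 16, and 669 and 615. Causes were not tested.

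Replicate numbers 1 and 2 recur across groups. Adult and puberty ER- libraries of the same number deviated together with a correlation of 0.096 over 18585 genes. That value compares different stages, so it cannot show whether the sorts of a stage came from the same mice. Pairing between sorts was not tested. With the replicate number as a block the counts were 851, 16 and 765.

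Of 55 named genes called, none reversed, 27 were called in every alternative other than the compared groups alone, and 30 whichever ER- library was left out. Genes not called changed sign: Csn3 (-0.19 with quantile normalization, -0.05 with TMM, -0.06 with edgeR, and -0.19 to 0.24 with 1 library left out), Elf5 (-0.05 with TMM, -0.06 with edgeR, and -0.03 to 0.09), Krt5 (-0.58 to 1.36) and Wap (-0.14 to 0.86). The interferon genes called lower numbered 22 to 34 under the other settings that kept all 4 ER- libraries, apart from 19 with thinned reads and 0 with the compared groups alone. A gene at 0 in both adult libraries may lie at up to 9.88 normalised reads.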
